A study of Mus musculus with 22 samples.

Results

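NF-kB is a small family of dimeric transcription factors together with the proteins that hold it in check. The genes described here are its 5 subunits (Rela, Rel, Nfkb1, Relb and Nfkb2) and 5 inhibitors and regulators (Nfkbia, Nfkbie, Tnfaip3, Bcl3 and Birc3), chosen by symbol. Together they account for 10 of the 55415 lines of the expression table, each with a line of its own. Their transcripts were measured in 22 RNA-seq libraries of mpkCCD cells, an immortalised mouse line from the cortical collecting duct that makes aquaporin-2 (Aqp2), a water channel under the control of vasopressin. Wild-type (WT) cells without dDAVP (control, 3 libraries) or with dDAVP (3 libraries), an agonist of the vasopressin V2 receptor, form 2 groups. The other 8 groups are the GFP-negative and GFP-positive fractions of 4 dDAVP-treated reporter clones (C1, C11, C43, C50), with 2 libraries per fraction and clone. The series title states cell-to-cell variability of Aqp2 as the subject, and the labels used here do not say which promoter drives the GFP. The labels call C1, C11, C43 and C50 GFP reporter cells, and each is treated here as 1 clone. How the fractions were separated is not given in the sources used here. All cells were grown on permeable supports and, per the labels' protocols, finished in a serum-free medium with dexamethasone, a glucocorticoid. Those protocols name a vehicle and 0.1 or 1 nM dDAVP for 24 or 48 hours, and do not tie a dose or time to a library. They also describe forskolin, which no library label names. Nothing in the labels says that replicates came from separate cultures, so p-values measure only the spread between these libraries, which may be technical.

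As background, resting NF-kB dimers are kept in the cytoplasm by inhibitors of the IkB family. In the canonical arm, an IkB kinase complex marks the inhibitors for destruction and releases dimers of RelA or c-Rel with the product of Nfkb1. In the non-canonical arm, receptors such as those for lymphotoxin, CD40 ligand and TWEAK let the kinase NIK (Map3k14) accumulate, the Nfkb2 precursor is trimmed, and its product pairs with RelB. TRAF3, TRAF2 and the ubiquitin ligases encoded by Birc2 and Birc3 keep NIK low in resting cells. Several members, among them Nfkbia, Nfkbie, Tnfaip3, Nfkb2 and Relb, are themselves NF-kB target genes, which closes feedback loops. In collecting duct cells, inflammatory NF-kB signalling has been linked to lower Aqp2.

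Expression is given as the authors' TPM (transcript abundance relative to all transcripts of the library, corrected for length), which keep no sequencing depth, so the depth is unknown and the spread between libraries is the only error given. Libraries had 12293 to 14341 genes at 1 TPM or more. Genes with any TPM above 0 numbered 17177 to 20250 in 10 libraries and 23135 to 31292 in 12. Each of WT control, WT dDAVP, GFP-negative and GFP-positive had libraries in both sets. The set with fewer genes held no GFP-negative library of C11, and the other set none of C1. Fraction differences within a set therefore come from the remaining clones. GFP-negative replicate 1 of C50 stood apart with 8.32% of its TPM in ribosomal protein genes, against a median of 4.82% over 22 libraries. GFP was 5.31 to 17.6 TPM in the GFP-negative and 1065 to 1567 TPM in the GFP-positive libraries. Fibroblast markers summed to at most 1.42 TPM and endothelial markers to at most 1.91 TPM in any library.

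The members covered a wide range of levels. Nfkbia, which encodes the inhibitor IkB-alpha, and Rela, which encodes the main activating subunit, were the most abundant, with medians over 22 libraries of 475 and 227 TPM. Nfkb2 followed with a median of 55.2 TPM and Nfkb1 with 28.6 TPM. Relb had a median of 14.0 TPM, Tnfaip3 of 8.28 TPM, Bcl3 of 5.07 TPM, Nfkbie of 4.87 TPM and Rel of 2.46 TPM. Birc3 was close to absent, with a median of 0.325 TPM and a listed value of 0 in 3 libraries, and it did not pass the filter of a mean of at least 1 TPM in any comparison. The count of members tested is therefore 9 of 10 at that filter. Testing any gene above 0 TPM adds Birc3. A filter of a mean of at least 5 TPM drops Rel, and between fractions Bcl3 as well.

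The members also differed in how far their level varied between the 10 groups. Tnfaip3 spanned 8.57-fold from its lowest to its highest group mean and Relb 7.54-fold. Nfkbie spanned 4.59-fold and Bcl3 3.67-fold. The canonical subunits varied less, at 2.39-fold for Rela, 1.65-fold for Nfkb1 and 1.59-fold for Rel, and Nfkb2 spanned 2.38-fold. The GFP-negative fraction of C1 had the highest mean of Rela, Relb, Nfkb2, Nfkbie, Tnfaip3 and Bcl3. In each of these its lowest library lay above the highest library of the group next in mean. For Bcl3 that group was WT dDAVP, and a C43 GFP-negative library (8.05 TPM) still exceeded the lowest C1 GFP-negative one (7.80 TPM). In the order of group means, neighbouring groups overlapped in 8 of 9 steps for Rela, Rel, Nfkb1, Nfkb2 and Nfkbie, in 6 of 9 for Nfkbia and Bcl3, in 5 of 9 for Tnfaip3 and in 3 of 9 for Relb. Relb thus gave the clearest order: C1, C43 and C11 GFP-negative, then C50 GFP-negative with the WT groups, then C1 GFP-positive, C11 with C43 GFP-positive, and C50 GFP-positive last.

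**Figure D1:**
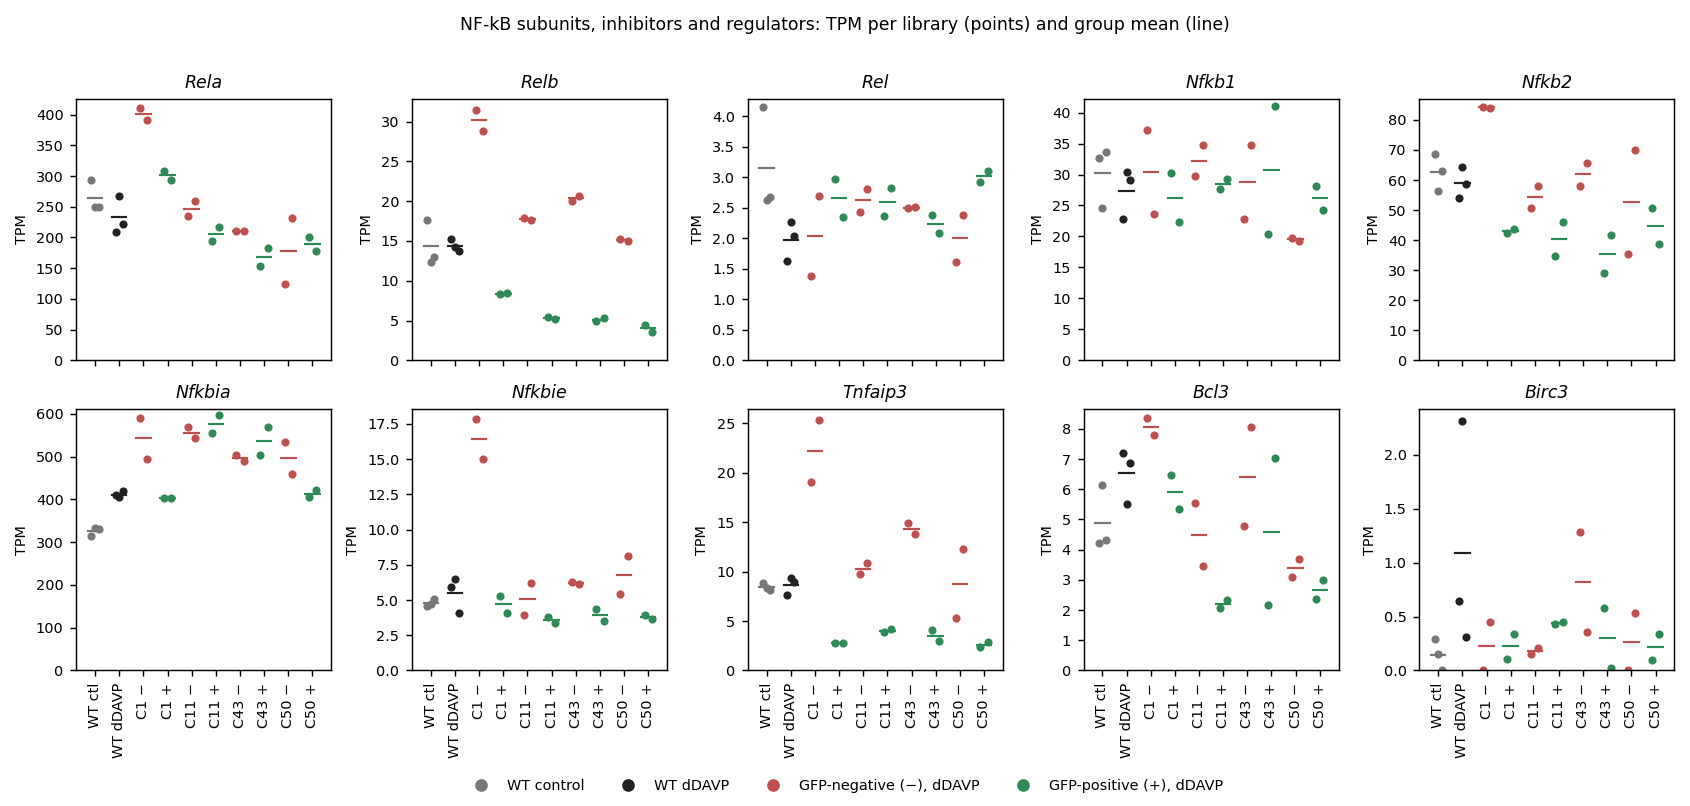
TPM of the 10 members in each of the 22 libraries (points) by group (horizontal axis), with the group mean as a line and a vertical axis from 0 in each panel. Relb and Tnfaip3 are lower in every GFP-positive library (at most 8.43 and 4.24 TPM) than in any GFP-negative library (at least 15.03 and 5.28 TPM), while Nfkb1 and Rel show no such split.

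The promoters of 3 members that differed between GFP fractions (Tnfaip3, Nfkb2 and Nfkbie) and of Nfkbia, which differed with dDAVP, are shown because these genes are known NF-kB targets. Where RefSeq lists several start sites, the one with most matches before it was printed. Each line gives the 250 bases before a RefSeq start site (GRCm38.p6), 5′ to 3′ on the gene's strand, with matches to the 10-base NF-kB consensus on either strand in capitals.
Tnfaip3 (chr10:19015411-19015660, minus strand): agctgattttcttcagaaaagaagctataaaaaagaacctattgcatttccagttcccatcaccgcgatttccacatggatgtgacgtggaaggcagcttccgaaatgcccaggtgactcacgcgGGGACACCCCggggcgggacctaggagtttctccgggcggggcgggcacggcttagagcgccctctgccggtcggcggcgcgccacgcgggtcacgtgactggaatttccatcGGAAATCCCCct
Nfkb2 (chr19:46304487-46304736, plus strand): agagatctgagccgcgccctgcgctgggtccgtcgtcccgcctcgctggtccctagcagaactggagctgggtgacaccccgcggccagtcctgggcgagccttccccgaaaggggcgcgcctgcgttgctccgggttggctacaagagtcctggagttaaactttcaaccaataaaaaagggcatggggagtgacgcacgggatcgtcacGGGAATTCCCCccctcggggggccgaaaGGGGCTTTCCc
Nfkbie (chr17:45555450-45555699, plus strand): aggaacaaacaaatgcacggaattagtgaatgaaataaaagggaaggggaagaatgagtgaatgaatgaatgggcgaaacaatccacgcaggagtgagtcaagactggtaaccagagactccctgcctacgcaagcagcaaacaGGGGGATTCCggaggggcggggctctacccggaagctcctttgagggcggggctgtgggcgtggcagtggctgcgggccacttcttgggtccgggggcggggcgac
Nfkbia (chr12:55492648-55492897, minus strand): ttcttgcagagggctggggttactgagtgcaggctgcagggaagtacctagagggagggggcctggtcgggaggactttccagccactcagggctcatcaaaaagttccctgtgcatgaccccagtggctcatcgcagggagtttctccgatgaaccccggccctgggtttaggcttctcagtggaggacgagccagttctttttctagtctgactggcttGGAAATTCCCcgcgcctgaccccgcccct
In Tnfaip3 the matches began 125 and 12 bases before the printed start site, and the window of its other start site held none. The other two windows of Nfkb2 held fewer matches than the printed one. Nfkb2 had overlapping matches that began 39 and 38 bases before the start, which read GGGAATTCCCC together, and another 11 bases before it. The match in Nfkbie began 106 bases and that in Nfkbia 29 bases before the start. RefSeq's table held 11 windows of 300 bases (250 before to 50 after a start) for 8 members, with none for Relb or Nfkb1. The consensus occurred in 8 of these 11 windows, from 6 members (Bcl3, Tnfaip3, Rel, Nfkbia, Nfkbie and Nfkb2), and in 8.46% of all 32851 windows. The unprinted windows of Nfkb2 overlap each other and share a match, so the count of windows holds that match more than once. These are matches of letters, and binding was not measured.

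The first comparison asks what dDAVP does to the members in WT cells. Nfkbia rose: it was 315, 334 and 332 TPM in the 3 control libraries and 410.1, 405 and 419 TPM in the 3 dDAVP libraries. The dDAVP libraries were all above the controls, with means of 327 ± 10.1 TPM (SD, n = 3) and 411 ± 7.43 TPM (SD, n = 3), a 1.26-fold difference. Its difference of mean log2(TPM + 1), the scale of every log2 change here, which understates changes of low genes, was 0.33 ± 0.0596 (SE, limma adjusted p 0.0208). The exact permutation p was 0.1, two-sided, the smallest that 3 against 3 libraries allow. Nfkbia was the only called member (adjusted p under 0.05) of 9 tested, where 8.88% of 13494 genes were called. The call was lost in 8 of 15 alternative settings (adjusted p 0.016 to 0.185), among them the removal of any WT control library or of dDAVP replicate 1 or 3, which gave adjusted p 0.0595 to 0.101 by limma.

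The median change of all genes was -0.16 as deposited and -0.00041 after median-ratio scaling. With that scaling, which removes the shift, Nfkbia changed by 0.50 (limma adjusted p 0.0353), Relb by 0.19 (adjusted p 0.417) and Tnfaip3 by 0.17 (adjusted p 0.289). On the deposited scale the 2 non-canonical subunits sat close to 0 with dDAVP. Relb was 17.6, 12.3 and 13.01 TPM in control and 15.3, 14.2 and 13.7 TPM in dDAVP libraries, overlapping groups with a log2 change of 0.02 ± 0.144 (SE, limma adjusted p 0.924). Nfkb2 was 56.3 to 68.5 TPM in control and 54.2 to 64.5 TPM in dDAVP libraries (log2 change -0.08, limma adjusted p 0.61, and 0.09 with median-ratio scaling). Tnfaip3, which encodes a ubiquitin-editing enzyme that shuts off signalling, was 8.86, 8.37 and 8.18 TPM in control and 7.60, 9.31 and 8.92 TPM in dDAVP libraries (log2 change 0.02, limma adjusted p 0.931). The WT groups of Nfkb2 and Tnfaip3 overlapped as well, and none of these 3 genes was called.

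Among the canonical subunits, Rel had the largest change, with 4.15, 2.62 and 2.68 TPM in control and 1.62, 2.27 and 2.04 TPM in dDAVP libraries. The groups did not overlap, and the log2 change of -0.47 had a limma adjusted p of 0.205 (-0.34 with median-ratio scaling). Rela changed by -0.19 (limma adjusted p 0.294, and -0.015 with median-ratio scaling) and Nfkb1 by -0.14 (adjusted p 0.571, and 0.03 with median-ratio scaling), and the groups of both overlapped. Of the other inhibitors, Nfkbie changed by 0.15 (limma adjusted p 0.583, and 0.30 with median-ratio scaling) and Bcl3, a nuclear IkB protein that binds Nfkb1 and Nfkb2 products, by 0.36 (adjusted p 0.215, and 0.51 with that scaling). Birc3 was 0.29, 0.15 and 0 TPM in control and 0.64, 2.31 and 0.31 TPM in dDAVP libraries, below the filter and without a test across genes.

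The second comparison asks how the members differ between GFP-positive and GFP-negative cells of the same clone, all with dDAVP. Of 9 members tested, 5 were called and all 5 were lower in GFP-positive cells: Relb, Nfkb2, Tnfaip3, Nfkbie and Bcl3. The background is high, since 35.3% of 13113 genes were called in this comparison, and the median change was -0.49 over the tested members and -0.06 over all genes. The 3 canonical subunits and Nfkbia were not called. In RNA from bulk fractions, fewer cells that express a gene and less RNA per cell cannot be told apart.

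Relb, the subunit specific to the non-canonical arm, was lower in every clone. In GFP-negative cells it was 31.5 and 28.8 TPM in C1, 17.9 and 17.7 TPM in C11, 20.1 and 20.7 TPM in C43, and 15.2 and 15.03 TPM in C50. In GFP-positive cells it was 8.30 and 8.43 TPM in C1, 5.41 and 5.16 TPM in C11, 4.88 and 5.34 TPM in C43, and 4.44 and 3.56 TPM in C50. Every GFP-positive library lay below every GFP-negative library of any clone, and also below the 6 WT libraries (12.3 to 17.6 TPM). The mean of 8 libraries was 20.9 ± 6.11 TPM (SD) in GFP-negative and 5.69 ± 1.75 TPM (SD) in GFP-positive cells, 3.67-fold apart. The log2 change with clone as a covariate was -1.70 ± 0.0698 (SE, limma adjusted p 8.86e-10), and the two-sided exact permutation p within clones was 0.00154, the smallest the design allows. It stayed called in all 30 alternative settings run, with changes of -1.86 to -1.62.

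Nfkb2, which supplies RelB's partner, was also lower. It was 84.3 and 84.0 TPM in C1, 50.7 and 57.9 TPM in C11, 58.0 and 65.7 TPM in C43, and 35.3 and 69.9 TPM in C50 GFP-negative libraries. The GFP-positive libraries held 42.4 and 43.9 TPM, 34.7 and 46.1 TPM, 28.9 and 41.7 TPM, and 50.7 and 38.8 TPM in the same order. The fractions overlapped only in C50, where GFP-negative replicate 1 was the lowest negative library. The log2 change was -0.59 ± 0.149 (SE, limma adjusted p 0.00662, two-sided exact permutation p 0.00926). Leaving out clone C1 or C43 ended the call (limma adjusted p 0.0797 and 0.0564), as did keeping only the clone libraries in which fewer genes were detected (adjusted p 0.443).

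The canonical subunits showed no called difference over the 4 clones. Rela, at 124 to 412 TPM in GFP-negative and 153 to 309 TPM in GFP-positive libraries, changed by -0.21 ± 0.114 (SE, limma adjusted p 0.168). Its GFP-positive libraries lay below the GFP-negative ones in C1, C11 and C43, and C50 overlapped. Without GFP-negative replicate 1 of C50, where Rela had its lowest value of 124 TPM, the change was -0.33 with a limma adjusted p of 0.000131 (46% of all genes were called in that setting), so this library decides the call. Without clone C50 it was -0.34 (adjusted p 0.000628), and among the 8 clone libraries with more genes detected -0.39 (adjusted p 0.0108). Nfkb1 was 19.2 to 37.2 TPM in GFP-negative and 20.5 to 41.1 TPM in GFP-positive libraries, with a log2 change of 0.02 ± 0.153 (SE, limma adjusted p 0.928). Rel was 1.39 to 2.81 and 2.09 to 3.11 TPM (log2 change 0.15 ± 0.129 SE, adjusted p 0.408).

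Among the inhibitors, Tnfaip3 was lower in every clone. It was 19.1 and 25.3 TPM in C1, 9.72 and 10.8 TPM in C11, 14.9 and 13.8 TPM in C43, and 5.28 and 12.3 TPM in C50 GFP-negative cells. In GFP-positive cells it was 2.74 TPM in both libraries of C1, 3.84 and 4.24 TPM in C11, 4.08 and 2.95 TPM in C43, and 2.34 and 2.84 TPM in C50. All 8 GFP-positive libraries were below all 8 GFP-negative libraries and below the WT libraries (7.60 to 9.31 TPM). The means were 13.9 ± 6.12 TPM (SD, n = 8) and 3.22 ± 0.719 TPM (SD, n = 8), 4.32-fold apart. The log2 change was -1.73 ± 0.199 (SE, limma adjusted p 1.38e-05), with the smallest two-sided exact permutation p of 0.00154. The call held in 29 of 30 alternatives and was lost in the 8 libraries of clones where fewer genes were detected, where the change was -1.89 (limma adjusted p 0.0612).

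Nfkbie, which encodes IkB-epsilon, was 17.9 and 14.99 TPM in C1 but 3.93 to 8.13 TPM in the other GFP-negative libraries. In GFP-positive cells of all 4 clones it kept to 3.35 to 5.28 TPM. GFP-positive libraries were lower in all 4 clones, while the fractions overlapped across clones. The log2 change was -0.81 ± 0.166 (SE, limma adjusted p 0.00156, two-sided exact permutation p 0.00154). Nfkbie was not called within either set of 8 clone libraries split by genes detected (limma adjusted p 0.154 and 0.0932). Of these sets, the one with more genes held no GFP-negative library of C1, and the other none of C11. Bcl3 was 3.11 to 8.35 TPM and 2.07 to 7.03 TPM, with a log2 change of -0.49 ± 0.177 (SE, limma adjusted p 0.0452, two-sided exact permutation p 0.0201). Its call was lost in 21 of 29 alternatives, including median-ratio scaling (adjusted p 0.0839), quantile normalization (adjusted p 0.141), removal of clone C1, C11 or C50 (adjusted p 0.125, 0.212 and 0.056) and removal of any of 12 single libraries (adjusted p 0.0535 to 0.0997).

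Nfkbia, the most abundant inhibitor, was not called over the 4 clones. It was 459.5 to 589.6 TPM in GFP-negative and 403 to 598 TPM in GFP-positive libraries, with a log2 change of -0.13 ± 0.0769 (SE, limma adjusted p 0.21). Its fractions were apart in C1, at 589.6 and 496 TPM against 404 and 403 TPM, and in C50, at 535 and 459.5 TPM against 405 and 423 TPM. In C11 and C43 they overlapped. Birc3 was at most 1.28 TPM in GFP-negative and 0.58 TPM in GFP-positive libraries and was not tested.

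**Figure D2:**
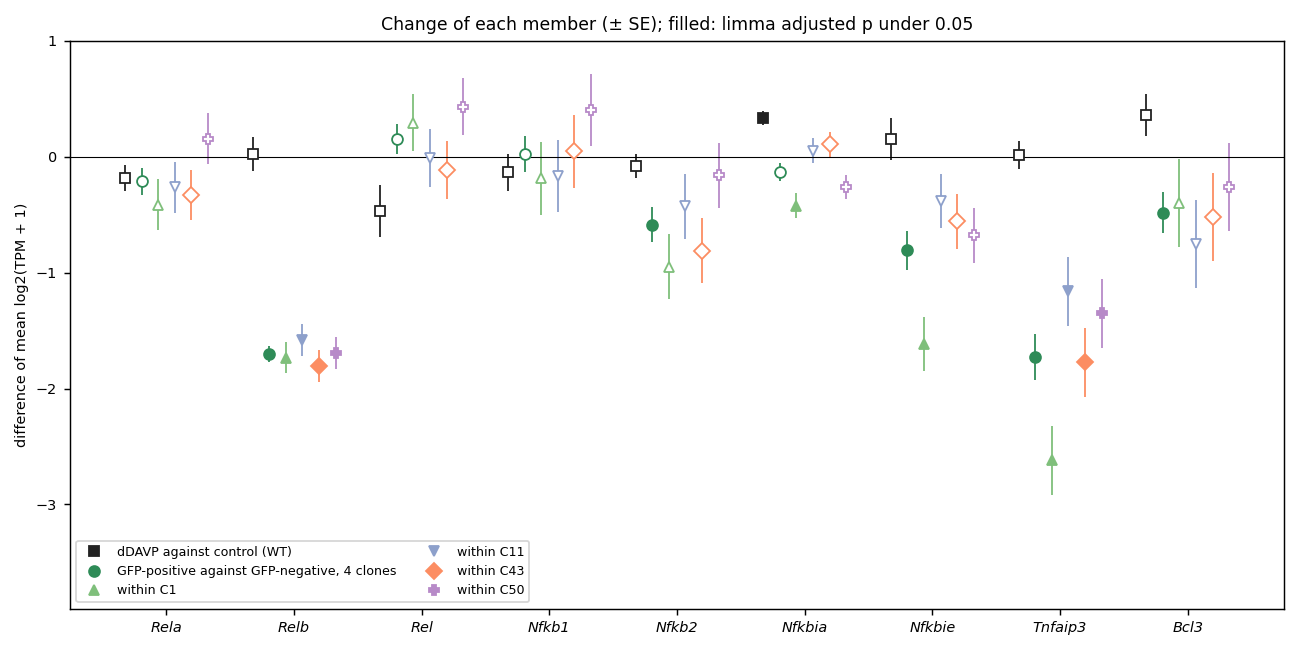
Difference of mean log2(TPM + 1) with its standard error (vertical axis) for the 9 tested members (horizontal axis) in the dDAVP comparison, over the 4 clones and within each clone, filled where the limma adjusted p is under 0.05. Relb and Tnfaip3 are filled in all 4 clones, at -1.81 to -1.58 and -2.62 to -1.16, and only Nfkbia is filled with dDAVP.

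Within single clones, Relb and Tnfaip3 were called lower in each of the 4. In C1, 4 of 9 tested members were called (7.22% of all genes): Relb by -1.73 (limma adjusted p 2.45e-05), Tnfaip3 by -2.62 (adjusted p 0.000304), Nfkbie by -1.62 (adjusted p 0.00151) and Nfkbia by -0.42 (adjusted p 0.0346). Tnfaip3 thus went from 22.2 to 2.74 TPM in this clone, an 8.10-fold difference of means, and Nfkbie from 16.4 to 4.70 TPM. The Nfkbia call in C1 was lost in 14 of 22 alternatives, among them median-ratio scaling (adjusted p 0.363), testing every gene above 0 TPM (0.113) and removal of any of 11 single libraries (0.0543 to 0.297), the highest being without GFP-negative replicate 1 of C1. In C11, C43 and C50 Relb and Tnfaip3 were called, and Nfkbie in C50 lay at the threshold (-0.68, limma adjusted p 0.0542), where 7.94%, 16.3% and 26.6% of all genes were called. Relb changed there by -1.58, -1.81 and -1.69 (limma adjusted p 5.57e-05, 1.05e-05 and 1.1e-05). Tnfaip3 changed by -1.16, -1.77 and -1.35 (limma adjusted p 0.0347, 0.00211 and 0.00675).

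The Tnfaip3 call in C11 was lost in 11 of 22 alternatives, without any of 10 single libraries (limma adjusted p 0.0539 to 0.206) and with every gene above 0 TPM tested (0.1). In C50 it was lost without GFP-positive replicate 1 (-1.25, adjusted p 0.054). It stayed called there without GFP-negative replicate 2 (-0.81, adjusted p 0.0105) and without GFP-negative replicate 1 (-1.89, adjusted p 0.000179), libraries that held 12.3 and 5.28 TPM. From C1 through C11 and C43 to C50, Nfkb2 had changes of -0.95, -0.43, -0.81 and -0.16 (limma adjusted p 0.0691, 0.447, 0.0722 and 0.707), and none of these was called. In C1 it was called with median-ratio scaling (adjusted p 0.0381) and quantile normalization (0.0287). Without either GFP-negative library of C50, limma called Nfkb2 in C1 (adjusted p 0.007 and 0.00632) and C43 (0.00888 and 0.00825), and Rela in C1 (0.0171 and 0.0166) and C43 (0.0295 and 0.0289). The values themselves stayed as given, and in these settings 15.9% and 16% of all genes were called in C1, and 29.6% and 29.8% in C43. Nfkbie in C50 was called in 5 of 22 alternatives, among them median-ratio scaling (-0.76, limma adjusted p 0.0139), quantile normalization (-0.83, 0.00635) and removal of GFP-negative replicate 1 of C50 (-0.93, 0.0219) or of either GFP-negative library of C11 (0.0459 and 0.0473). Without GFP-negative replicate 2 of C50 it was -0.43 (limma adjusted p 0.183). Without GFP-negative replicate 2 of C50, Nfkbia was called lower (-0.37, limma adjusted p 0.014) and Rela higher (0.60, 0.00181) in that clone, where 52.2% of all genes were then called, and without GFP-positive replicate 2 of C43, Bcl3 was called lower in C43 (-1.20, 0.0448).

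Whether the GFP difference varies between clones was tested by the interaction of fraction and clone. None of 9 members was called, where 0.869% of genes were. In limma's moderated F-test 3 had an unadjusted p under 0.05: Nfkbia (0.0131), Nfkbie (0.0149) and Tnfaip3 (0.0219). Of all 13113 genes, 1691 had such a p. For Relb the adjusted p was 0.835. Without GFP-negative replicate 2 of C50, 5 members were called (Rela, Nfkb2, Nfkbia, Nfkbie and Tnfaip3, limma adjusted p 0.003 to 0.0236), but 38.6% of 13066 genes were called in that setting, so both counts rest on that library. That setting leaves C50 GFP-negative with replicate 1 alone, the library high in ribosomal protein transcripts, which is then assumed to vary like the other groups. Differences between clones whatever the fraction were called for 4 members, Relb (limma adjusted p 5.26e-05), Rela (0.00148), Bcl3 (0.0198) and Nfkbie (0.0309), where 28% of all genes were called. The Nfkbie call was lost in 4 of 21 alternatives: any gene above 0 TPM tested (limma adjusted p 0.0891), or without C1 GFP-negative replicate 1 (0.123) or 2 (0.119) or C11 GFP-negative replicate 2 (0.0502). The Bcl3 call was lost in 2 of 20, with any gene above 0 TPM tested (0.0581) and without C1 GFP-positive replicate 1 (0.0622). C1 was the clone with the highest level of each of these 4 in both fractions.

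The arms were then set side by side within each library, as a description without a test, since TPM are per length and levels of different genes may be compared. In GFP-negative libraries Rela exceeded Relb 8.17-fold to 15.4-fold, with a median of 13.1-fold. The GFP-positive libraries gave 31.4-fold to 50.2-fold, with a median of 36.5-fold, so the fractions did not overlap. WT libraries lay between, at 16.7-fold to 20.3-fold in control and 13.7-fold to 18.8-fold with dDAVP, the latter overlapping the GFP-negative range. The ratio of Nfkb2 to Nfkb1 was 1.66 to 3.64 in GFP-negative and 1.01 to 1.97 in GFP-positive libraries, which overlapped. WT libraries had 1.87 to 2.37. The mean log2(TPM + 1) of the non-canonical subunits minus that of the canonical ones was 0.01 to 0.65 in GFP-negative, -0.98 to -0.47 in GFP-positive and -0.08 to 0.34 in WT libraries. Of the TPM summed over the 5 subunits, Relb made up 5.04% to 6.30% in the means of the GFP-negative and 1.49% to 2.20% in those of the GFP-positive groups. Rela made up 65.0% to 78.9% of the summed TPM in every group mean.

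**Figure D3:**
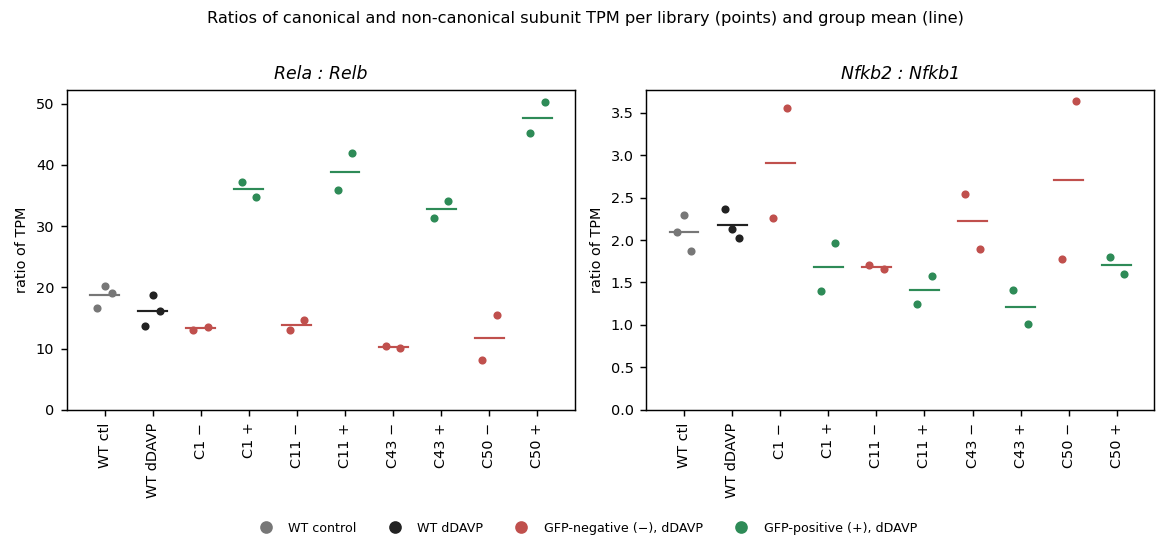
TPM ratios of Rela to Relb (left) and Nfkb2 to Nfkb1 (right) per library (points) with the group mean (line), by group on the horizontal axis. The 8 GFP-positive libraries sit at 31.4 to 50.2 for Rela to Relb, above the 8.17 to 15.4 of the GFP-negative libraries, and the Nfkb2 to Nfkb1 ranges overlap.

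Across the 10 group means of log2(TPM + 1), Relb and Tnfaip3 had a Pearson r of 0.95, Relb and Nfkb2 of 0.89, Nfkb2 and Tnfaip3 of 0.90, and Nfkbie of 0.80 to 0.82 with each of the 3. Rela, Nfkb1 and Nfkbia had an r with Relb of 0.57, 0.10 and 0.07, Bcl3 of 0.75, Rel of -0.43 and Birc3, close to absent, of 0.13. These describe 10 groups that share clones and the GFP split, and carry no p. The genes outside the set with the most similar group pattern were Enoph1, Eif3l and Rab31 for Relb (r 0.98 to 0.99) and Fads3, Cdr2 and Nmt1 for Tnfaip3 (r 0.96 to 0.97). For Nfkb2 they were Gper1, Phc2 and Tmem63b (0.96 to 0.98), and for Nfkbia, at lower likeness, Bri3, Cxcl1 and Mcts2 (0.86 to 0.89).

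Of the tested receptors, ligands, adaptors and kinases, the largest change between fractions was that of a receptor of the non-canonical arm. Tnfrsf12a, the TWEAK receptor Fn14, was 578 to 996 TPM in GFP-negative and 68.8 to 155 TPM in GFP-positive libraries, with no overlap. Its log2 change was -2.89 ± 0.179 (SE, limma adjusted p 3.98e-08), and it was called in all 4 clones (-2.08 in C1, -2.43 in C11, -3.68 in C43, -3.37 in C50) and in all 30 alternatives. WT libraries held 432 to 635 TPM, and its dDAVP change of -0.13 was not called (limma adjusted p 0.53). Over the receptor list, 2 of 9 tested genes were lower and 2 higher (Tlr4 by 0.47 and Il1rap by 0.42, limma adjusted p 0.00357 and 0.036), with a median of -0.08. That count is near the 35.3% of all genes called. The Il1rap call was lost in 17 of 30 alternatives. Of 12 ligands only Il18 passed the filter, and its transcript was higher in GFP-positive cells (0.84, limma adjusted p 0.00322) and with dDAVP (0.99, adjusted p 0.0278, lost in 8 of 15 alternatives).

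Among adaptors and kinases, 3 of 22 tested genes were lower and 2 higher in GFP-positive cells, a smaller share than the 35.3% of all genes called. Traf3, which targets NIK for destruction, was 5.98 to 9.98 TPM in GFP-negative and 2.40 to 6.61 TPM in GFP-positive libraries (log2 change -0.71, limma adjusted p 0.00106). The fractions were apart in C1, C11 and C43 and overlapped in C50, and the call was lost only in the 8 libraries of clones where fewer genes were detected (adjusted p 0.278). Traf2, its partner, changed by -0.27 (adjusted p 0.0219, lost in 8 of 30 alternatives) and Bcl10, an adaptor of antigen-receptor signalling, by -0.29 (adjusted p 0.000409). Traf5 was higher by 0.44 (limma adjusted p 0.00055). Map3k14, the kinase NIK itself, was 7.97 to 11.9 TPM in GFP-negative and 7.03 to 17.7 TPM in GFP-positive libraries (log2 change 0.02, limma adjusted p 0.917). The IkB kinase genes Chuk, Ikbkb and Ikbkg changed by 0.06, -0.09 and 0.46 (adjusted p 0.828, 0.584 and 0.0751), and Birc2 by 0.20 (adjusted p 0.358). Single settings moved these values. Ikbkg was called with median-ratio scaling (0.54, limma adjusted p 0.00987), quantile normalization (0.54, 0.00354) and without C43 GFP-positive replicate 2 (0.55, 0.0434), and Birc2 with quantile normalization (0.28, 0.0341). Ikbkb was called lower without clone C50 (-0.25, limma adjusted p 0.0117) or its GFP-negative replicate 1 (-0.21, 0.0134). With 1 library left out, Ikbkb ranged from -0.21 to -0.052, Ikbkg from 0.29 to 0.55 and Birc2 from 0.055 to 0.28, and without C50 GFP-negative replicate 1 Ikbkg and Birc2 had their lowest values. In C50, Ikbkg was called higher by 1.19 (limma adjusted p 0.0249), with 8.18 and 20.9 TPM in GFP-negative and 29.9 and 32.7 TPM in GFP-positive libraries. That call was lost in 4 of 22 alternatives. The value was 0.56 (limma adjusted p 0.153) without GFP-negative replicate 1 and 1.81 (adjusted p 0.000234) without GFP-negative replicate 2, and the call also ended without GFP-positive replicate 1 (1.13, adjusted p 0.121) or 2 (1.25, adjusted p 0.0901). With dDAVP none of the 22 was called by limma, where 8.88% of all genes were. An unadjusted p under 0.05 was held by 5 of the 22 and by 4179 of all 13494 genes. The list's median of -0.18 was close to the -0.16 of all genes.

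**Figure D4:**
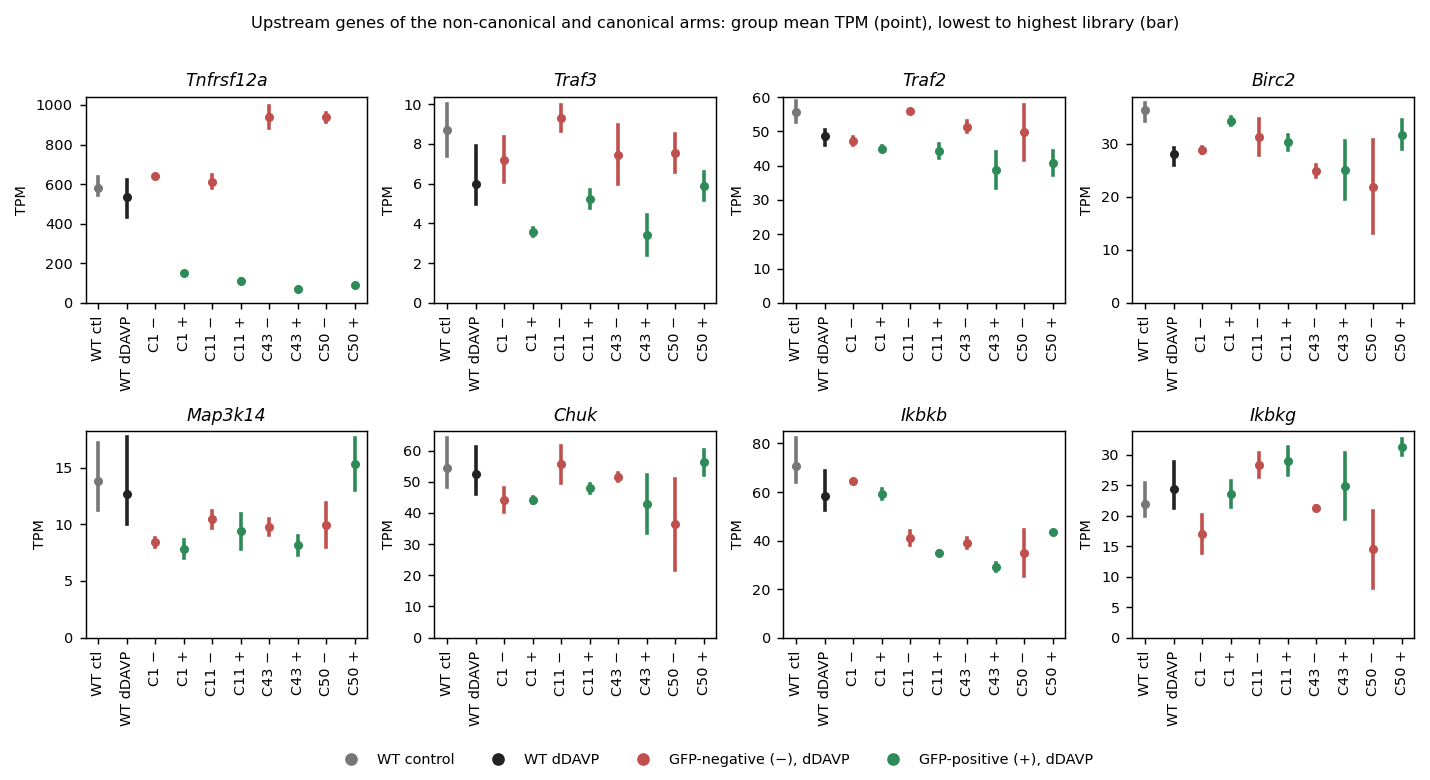
Group mean TPM (points) and the range from lowest to highest library (bars) of 8 upstream genes by group, each vertical axis from 0. Tnfrsf12a falls from 578 to 996 TPM in GFP-negative to 68.8 to 155 TPM in GFP-positive libraries, while Map3k14 overlaps between the fractions.

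Other inhibitors split in direction. Of 12 tested, 3 were lower in GFP-positive cells (among them Nfkbib, which encodes IkB-beta, by -0.34, limma adjusted p 0.000298, and N4bp1 by -0.34, adjusted p 0.00483). The single higher gene was Zc3h12a, an endoribonuclease that degrades inflammatory transcripts, at 0.81 (adjusted p 0.00106). This count too is near the 35.3% of all genes called. With dDAVP 2 of the 12 were lower, Tnip2 by -0.48 and Birc2 by -0.36 (limma adjusted p 0.0336 and 0.0482), and these calls were lost in 10 and 11 of 15 alternatives, where 8.88% of all genes were called.

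Of 22 tested genes on the list of known NF-kB targets, 9 were lower and 2 higher in GFP-positive cells, with a median of -0.10, where 35.3% of all tested genes were called. Complement C3 was 37.5 to 106 TPM in GFP-negative and 109 to 254 TPM in GFP-positive libraries, without overlap (log2 change 1.26, limma adjusted p 0.000126). The chemokine Cxcl2 was 4.2 to 31.6 and 1.57 to 13.3 TPM (-1.11, limma adjusted p 0.000588), and Cxcl10 17.4 to 43.2 and 2.70 to 22.5 TPM (-1.25, adjusted p 0.0074). With dDAVP 3 of 22 targets were higher and 1 lower, where 8.88% of all genes were called. C3 by 1.88 (limma adjusted p 0.00167), Cxcl1 by 0.63 (adjusted p 0.0112) and Gadd45b by -0.30 (adjusted p 0.0437) were those with a mean of at least 5 TPM. The Gadd45b call was lost in 9 of 15 alternatives and the Cxcl1 call in 4.

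Some marker genes moved with the GFP fractions. Summed TPM of 12 principal cell markers was 620 to 3031 in GFP-negative and 3161 to 10796.5 in GFP-positive libraries, with Aqp2 and Fxyd4 making up most of the sum in every GFP-positive library. Of 9 tested, 6 were higher and 1 lower, where 35.3% of all genes were called. Aqp2 by 3.11 (limma adjusted p 4.74e-06) and Fxyd4 by 1.94 (2.29e-07) were among the higher. Aqp3, a basolateral water channel, was lower (log2 change -0.64, limma adjusted p 0.0195). Scnn1a and Aqp4 were not called, and the other 3 markers stayed below 1 TPM in every library. The 9 leukocyte markers summed to 17.4 to 31.6 and 12.2 to 21.8 TPM. The highest of them were Csf1r (7.05 to 21.5 TPM over all libraries) and Cd68 (2.86 to 12.4 TPM), and Csf1r was lower in GFP-positive cells, with a log2 change of -0.57 (limma adjusted p 0.00111). Of these 9 markers, 6 stayed below 1 TPM in every library of either fraction, and Ptprc, the pan-leukocyte gene CD45, was 0.09 to 1.87 TPM over all libraries. The 7 intercalated cell markers summed to 21.5 to 73.8 TPM in GFP-negative and 46.8 to 112 TPM in GFP-positive libraries. Most of this was Atp6v1b1, a proton pump subunit, which was higher by 0.81 (limma adjusted p 0.00899) and in C50 was 19.4 and 27.4 against 86.8 and 61.0 TPM. Slc4a9, an anion exchanger, was not called over the 4 clones (0.38, limma adjusted p 0.201), but in C50 it was 2.11 and 2.72 against 8.17 and 8.83 TPM (1.48, adjusted p 0.00465). The other 5, Foxi1 among them, stayed below 1 TPM in every library. The 3 proximal tubule markers summed to 0.94 to 13.01 and 3.89 to 16.1 TPM. The part of these lists in the differences of Relb and Tnfaip3 was not tested. Across the 8 clone group means, Relb, Nfkb2, Nfkbie and Tnfaip3 had an r with Aqp2 of -0.86, -0.87, -0.84 and -0.83, Rela of -0.77, Bcl3 of -0.62, Nfkbia of -0.35, Nfkb1 of -0.27 and Rel of 0.45, which describes groups that were split by GFP. Over all 10 group means, with the WT groups, these were -0.73, -0.78, -0.62 and -0.70, then -0.71 for Rela, -0.46 for Bcl3, 0.16 for Nfkbia, -0.34 for Nfkb1 and -0.07 for Rel, so the signs of Nfkbia and Rel turned. In WT cells Aqp2 rose by 5.36 on the log2 scale with dDAVP while Relb and Tnfaip3 had changes of 0.02 each as deposited, 0.19 and 0.17 with median-ratio scaling, and 0.25 each with quantile normalization, none of them called.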

How the data were processed

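RNA from 22 mpkCCD libraries was read, per the labels' protocols, after SMART-Seq HT amplification and Nextera XT paired-end library preparation. STAR and RSEM appear in the submitters' processing notes, without versions, and the genome build and annotation are not given in the sources used here. The authors deposited TPM per gene and library, with ratios of group means, which are not used here. TPM keep no read counts, so depth is unknown and a rise in abundant genes lowers the rest. Amplified cDNA libraries without molecular identifiers can also vary in how many low genes they detect.

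Of 55415 lines, 980 shared 79 symbols and were summed, which left 54514 entries. No 2 libraries held identical values. Genes with a mean of at least 1 TPM in a comparison were tested as log2(TPM + 1) with limma 3.58.1 in R 4.3.3 (empirical Bayes with a trend), and p-values were adjusted by Benjamini-Hochberg over all tested genes and called under 0.05. The 6 WT libraries and the 16 clone libraries (clone as covariate, or clone by fraction) were fitted separately. Single members were also tested by exact permutation, two-sided. The procedure was tested on simulated data.

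The members and lists were chosen with earlier results of these data known. Genes named are all members, Aqp2, GFP, 7 core kinase and adaptor genes, the 3 most alike genes for a member, and up to 3 called genes per list and comparison with a mean of at least 5 TPM and the largest changes. The marker genes other than Aqp2 were named after their values were seen. Alternatives were other filters, pseudocounts, scalings, fits and left-out libraries or clones. The split by genes detected was chosen after seeing the data, and neither set held both fractions of every clone. Replicate numbers were not used to pair samples in the main fits, and the labels do not say whether same-numbered fractions belong together. Correlations of same-numbered deviations ranged from -0.21 to -0.03 among WT libraries, and from 0.02 to 0.20 within clones. Genes detected went with the number in C43 (30855 and 29973 in replicate 1, 19002 and 19556 in replicate 2) and C50, but not in C11. Pairing within clones is thus not excluded, and a replicate block was run as an alternative.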

Additional observations from a re-analysis of the deposited data

Results flagged for a closer look

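Among the members and the named genes, Aqp2 and 3 genes of the NF-kB lists had a difference between GFP fractions that varied between clones. No member did. The test was limma's interaction of fraction and clone, which called 0.869% of 13113 genes. The named genes were picked partly for large changes, and the rest of the lists was not searched here. For Aqp2 the interaction had an adjusted p of 2.15e-06, with changes of 4.84, 3.59, 2.10 and 1.90 in C1, C11, C43 and C50. Tnfrsf12a, the TWEAK receptor, had a limma interaction adjusted p of 0.000754 (0.000369 to 0.0362 over the alternatives), with means of 643, 612, 939.8 and 937 TPM in GFP-negative and 151, 113, 72.4 and 89.9 TPM in GFP-positive cells of the same clones. For Lcn2, which encodes the iron-binding protein lipocalin-2, the limma interaction adjusted p was 0.0141. Its changes were -1.05, -0.96 and -1.74 in C11, C43 and C50, and the means in C1 were 1557 TPM in GFP-negative and 1360.1 TPM in GFP-positive cells. Cxcl10 had a limma interaction adjusted p of 0.0422, with changes of -1.29 in C11 and -3.00 in C50 and means of 22.3 and 21.8 TPM in C1.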

How the results depend on the processing

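TPM give no depth, so the limit it sets cannot be given, and values near 0 (Birc3, Rel) have the weakest precision. Counts are of limma calls, and for each change listed the cause was not tested. Relb and Tnfrsf12a over the 4 clones kept their direction and call in every alternative run, and Tnfaip3 lost its call only where the fit kept the 8 clone libraries with fewer genes.

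With dDAVP, 1198 genes were called, and 442 when any gene above 0 TPM was tested, 757 with median-ratio scaling, 2694 with genes detected as a covariate, 779 with 22 libraries in 1 model and 101 among libraries with more genes detected. Leaving out 1 library gave 314 (WT control replicate 3) to 2038 (WT dDAVP replicate 2). Members called went from 1 to 0 when any gene above 0 TPM was tested and among libraries with more genes detected, and were 0 to 1 with 1 library left out. With replicate block, 122 genes and 0 members were called with dDAVP. The replicate block with clone gave 4259 genes and 5 members between fractions, where 4626 and 5 were called without it. In C1 it gave 615 genes (4.69%) and 3 members, where 947 (7.22%) and 4 were called without it.

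Between fractions, clone means as replicates gave 2406 genes, and the clone libraries with fewer genes detected gave 250 genes (1.96%) and 1 member. Members called were 3 without clone C1 (28.7% of all genes) and 4 to 6 with 1 library left out (31.8% to 46%, the highest without C50 GFP-negative replicate 1, which gave 6). Testing any gene above 0 TPM gave 1 member in C11 (1.51% of all genes) and 2 for differences between clones (6.58%). Quantile normalization gave 1 member (Tnfaip3) in the interaction (1.81% of all genes). With 1 library left out, members called were 3 to 6 in C1, 1 to 2 in C11, 2 to 4 in C43, 1 to 4 in C50 and 0 to 5 in the interaction, where the share of all genes called was 2.87% to 16%, 2.42% to 17.8%, 6.58% to 29.8%, 13.7% to 52.2% and 0.319% to 38.6%. The highest of each share and of each member count came without C50 GFP-negative replicate 2, and other libraries gave the same highest count in C1, C11 and C43.

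No reversed value was past the threshold. With dDAVP, median-ratio scaling gave Nfkb1 0.031, Nfkb2 0.088, Chuk 0.119 and Map3k14 0.027, and quantile normalization gave 0.066, 0.046, 0.087 and 0.094. Libraries with more genes detected gave Relb -0.073 and Nfkb1 0.066, and genes detected as a covariate gave Tnfaip3 -0.016. With 1 library left out, Relb was -0.070 to 0.17, Tnfaip3 -0.035 to 0.095, Chuk -0.16 to 0.068 and Map3k14 -0.38 to 0.026. Between fractions, libraries with more genes detected gave Nfkb1 -0.030, Chuk -0.032 and Map3k14 -0.19, and those with fewer gave Ikbkb 0.032. Without clone C50, Nfkb1 was -0.10, Chuk -0.16 and Map3k14 -0.16, and without clone C43 Ikbkb was 0.0089. With 1 library left out, Nfkb1 was -0.067 to 0.11, Chuk -0.11 to 0.15 and Map3k14 -0.073 to 0.080. In C11, Rel was 0.099 with median-ratio scaling and 0.11 with quantile normalization, and Nfkbia -0.044 with the latter. In C43, Rel was 0.018 and 0.060 under these scalings. With 1 library left out, Rel was -0.021 to 0.61 in C1 and -0.10 to 0.080 in C11, Nfkb1 -0.50 to 0.13 in C1 and -0.44 to 0.53 in C43, Bcl3 -1.20 to 0.15 in C43, Nfkbia -0.00077 to 0.10 in C11, and in C50 Nfkb2 -0.64 to 0.32 and Rela -0.29 to 0.60.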
